A study of Mus musculus with 5 samples.

Results

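The nuclear-encoded genes of mitochondrial oxidative phosphorylation were followed through the RNA-seq libraries of the mouse uterine luminal layer around embryo attachment. Members were taken by name from the table of gene counts, namely every gene whose symbol began with Nduf followed by a, b, c, s or v, with Uqcr, with Atp5 or with Cox4 to Cox8 plus a letter, and the genes Sdha, Sdhb, Sdhc and Sdhd. This gave 92 of 23420 genes. By their known roles, 82 of them encode structural subunits or tissue variants of subunits, 8 encode assembly factors of complex I, and Cox7a2l and Atp5s encode an organiser of supercomplexes and a coupling factor. The subunits encoded by mitochondrial DNA were not analysed here, and the pattern of names did not take in Cyc1 or Cycs, the cytochromes c1 and c.

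Oxidative phosphorylation is carried out by complexes of the inner mitochondrial membrane. Complexes I and II pass electrons from NADH and succinate to ubiquinone, complex III passes them to cytochrome c, and complex IV passes them to oxygen. Complexes I, III and IV pump protons, and complex V, the ATP synthase, lets the protons flow back through a ring of c subunits and makes ATP. The luminal epithelium lines the uterine cavity and is the first maternal tissue that the blastocyst touches, and the blastocyst attaches to it between the evening of day 4 and the morning of day 5.

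All libraries came from wild-type C57BL/6N females, with the day of the vaginal plug counted as day 1 of pregnancy. The 5 libraries, 1 per group, were from day 3 morning, day 4 morning, day 4 evening, and 2 places on day 5 morning. On day 5 the luminal layer was collected apart from the embryo (label M pole, here day 5 away). It was also collected where it encloses the embryo (label AM pole, here day 5 around). Before this, an intravenous blue dye had marked the implantation sites. The paper uses M and AM for the mesometrial and anti-mesometrial poles. Nearness to the embryo and the pole of the lumen therefore cannot be told apart, and the labels of the earlier libraries name no pole. The layer was cut from frozen sections by laser microdissection and amplified with a SMART-seq kit, and the age of the females and the number of females behind a library are not given in the sources used here. With 1 library in each group no difference between groups has a replicate check, and no test of the groups was made. Intervals given with single genes are exact 95% Clopper-Pearson intervals of a ratio of counts and cover counting error only. Because these are bulk libraries, fewer cells of a type and less RNA per cell cannot be told apart.

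Library totals lay between 15334674 and 19529491 counts, and 15.0% to 23.2% of them fell on Rn45s and Lars2. Epithelial markers were abundant in every library, with 8023 to 20002 counts of Krt8, 8029 to 22658 of Cdh1 and 7016 to 26243 of Epcam. Cdh1, Epcam and Cldn7 were highest in the day 5 around library, by 1.64, 1.29 and 1.14 on the log2 scale over day 5 away. Of all 7 epithelial markers, 4 were higher and 1 was lower by over 2-fold there than on day 4 morning. The day 5 around library also held transcripts of the embryo. Pou5f1, Nanog, Cdx2 and Zfp42 had 68, 10, 22 and 246 counts in it and 0 in the other 4 libraries. In CPM, the count scaled to a common library size, all 10 embryo markers summed to 2439 there and to 764 to 2154 CPM elsewhere, most of it Sox17, which had at least 14211 counts in every library. The 5 smooth muscle markers summed to 389 CPM there against 7.81 to 27.4 CPM elsewhere, most of it Desmin (Des), which had 6090 counts. Leukocyte markers summed to 90.2 CPM in the day 5 around library and to 240 to 359 CPM in the others, stromal markers to 402 and 545 to 624 CPM, and endothelial markers to 96.8 and 11.8 to 44.4 CPM. Within the leukocyte, stromal and endothelial lists the markers went both ways. In day 5 around against day 4 morning, 1 of 5 leukocyte, 2 of 9 stromal and 2 of 5 endothelial markers were higher by over 2-fold. Lower by over 2-fold were 4, 4 and 1. All genes gave 20.9% higher and 22.4% lower. Gland markers were at most 26.1 CPM and red cell markers at most 1.90 CPM in any library. The part of these cells in the differences below was not tested.

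As a set, oxidative phosphorylation genes were counted in the luminal layer at every stage. Their counts made up 1.33%, 1.02%, 1.17%, 1.04% and 0.713% of the libraries in the order day 3 morning, day 4 morning, day 4 evening, day 5 away and day 5 around. After scaling by TMM, a method that sets the bulk of genes equal between libraries, they summed to 11570, 11110, 12330, 9279 and 8033 CPM in the same order. The sum was lowest around the embryo on either scale, and highest on day 4 evening by CPM but on day 3 morning as a share of counts. Complex I summed to 3287, 3105 and 3249 CPM up to day 4 evening and to 1984 and 1573 CPM in the day 5 away and day 5 around libraries. Complex V stayed between 2844 and 3069 CPM in all 5 libraries, but only with Atp5g1. Without that gene it summed to 2936, 2756, 2902, 2521 and 2260 CPM. Complex I without Ndufc2 summed to 2447, 2228, 2628, 1857 and 1501 CPM, so by CPM both were lowest on day 5. As a share of counts, day 5 away lay above day 4 morning for both. The shares were 0.283% against 0.252% for complex V without Atp5g1 and 0.209% against 0.204% for complex I without Ndufc2. When 7 genes described below (Ndufc2, Cox7a2l, Ndufa6, Ndufa2, Uqcrh, Atp5f1 and Atp5g1) were left out, the members summed to 8825, 7782, 9053, 7669 and 6616 CPM. Day 4 morning and day 5 away were then close to each other by CPM, but at 0.7115% and 0.8618% as shares of counts.

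Of the 92 members, 83 passed the filter of a mean of at least 1 CPM over the 5 libraries, as did 12918 of all genes. The 9 that did not were mostly variants used by other tissues. Cox8b and Cox7b2 had 0 counts in every library, and each library's floor of 3 counts equals 0.154 to 0.196 CPM. Cox8c had 0 to 2 counts, Cox6a2 0 to 6, Cox7a1 0 to 6, Cox4i2 3 to 14 and Cox6b2 8 to 29. Cox6a2, Cox7a1 and Cox8b are known as the striated muscle forms, and Cox6b2 and Cox8c as testis forms. Their counterparts Cox6a1, Cox7a2, Cox8a and Cox6b1 were all well counted, with at least 1341 counts in each library, so the luminal layer held the general forms. The other low genes were Atp5k, the e subunit of ATP synthase, with 8 to 17 counts, and Ndufs5, an accessory subunit of complex I, with 0 in every library. The exons of Ndufs5 overlap those of BC002163 on the same strand over 484 bases, and a read that fits both genes may be left unassigned by a counting tool, so the 0 of Ndufs5 was not read as a lack of transcript.

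Levels between genes were compared per length, as CPM divided by the gene length in kilobases (RPKM). On day 4 morning the median was 68.5 RPKM over the 35 subunits of complex I, 61.3 over 4 of complex II, 241 over 8 of complex III, 167 over 12 of complex IV and 197 over 14 of complex V. Subunits of complexes III, IV and V were therefore at higher levels than those of I and II, and this order of the groups held in the day 5 around library with medians of 45.9, 43.1, 216, 196 and 135 RPKM. Within a complex the levels spread widely. On day 4 morning complex I ran from 9.58 RPKM to 1288 RPKM, the latter being Ndufc2, the most abundant member per length in the day 3 and both day 4 libraries. Cox7a2l followed at 874 RPKM, Uqcrh at 648, Cox4i1 at 559 and Cox8a at 552. In the day 5 around library the order was another, with Atp5g1 first at 780 RPKM, then Cox8a at 566, Ndufa4 at 446, Cox6a1 at 433 and Uqcrb at 391.

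**Figure D1:**
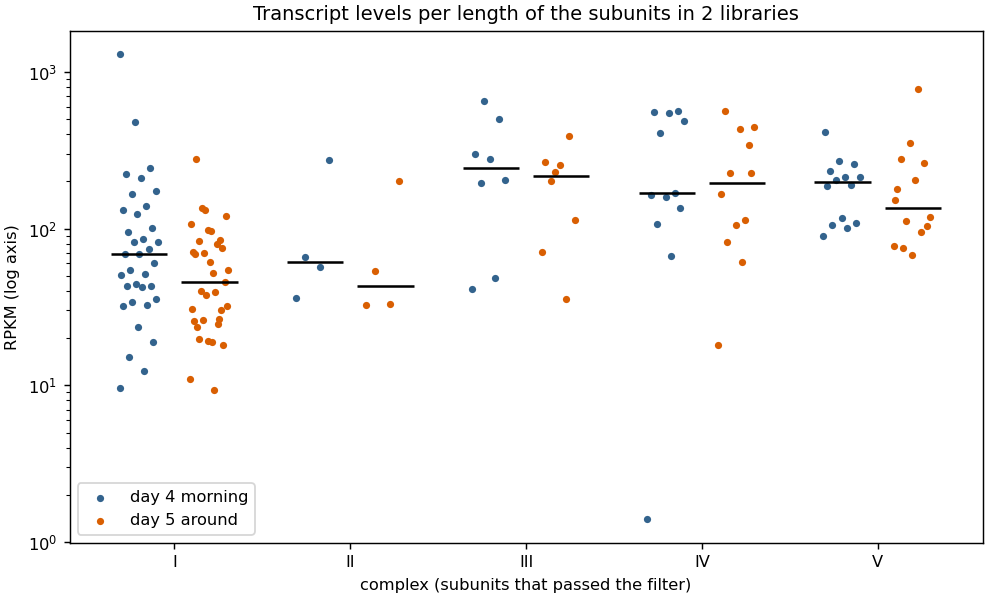
Each point is 1 subunit that passed the filter, the vertical log axis is its level in RPKM, blue is the day 4 morning library, orange the day 5 around library, and the black lines are medians over the subunits of a complex. Medians of complexes III, IV and V lie above those of I and II in both libraries, and the top point of complex I on day 4 morning is Ndufc2 at 1288 RPKM. The low orange and blue points of complex IV are Ndufa4l2.

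The question put to the comparisons was how these genes differ between the pre-receptive day 3, the receptive day 4 and the attached state on day 5. Differences are given on the log2 scale of TMM-scaled CPM with a prior count of 2, and a gene is counted as past 2-fold when its difference lies beyond 1 in either direction. All comparisons with day 4 morning share that single library, and their values are set side by side without a comparison between them.

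From day 3 morning to day 4 morning the members differed little. Their median difference was -0.16, beside 0.04 over all 12918 genes, and 59 of 83 members were lower on day 4. Past 2-fold, 1 member was higher, where 7.97% of all genes were, and 1 was lower, where 11.0% of all genes were. The member that was lower was Ndufaf2, an assembly factor of complex I, and the higher one Ndufa4l2, which rests on 7 and 24 counts. Below these, and among members that averaged 10 CPM or more, the ends were held by Cox7a2l at 0.82, Atp5s at 0.59 and Ndufaf1 at 0.39 upwards, and Ndufa5, an accessory subunit of complex I, at -0.82 and Ndufa4, a subunit of complex IV, at -0.70 downwards. By complex, the medians were -0.15 for I, -0.03 for II, -0.25 for III, -0.24 for IV and -0.14 for V.

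On day 4 evening most members were slightly higher than on day 4 morning. The median difference was 0.22, beside -0.00 over all genes, with 66 of 83 members above 0. Past 2-fold, only Ndufaf2 was higher, where 7.15% of all genes were, and 0 members were lower, where 6.96% of all genes were. Complex III had all 8 subunits higher, from 0.15 to 0.69, and complex IV had 11 of 12 higher with a median of 0.32. Atp5g1, 1 of the genes of subunit c, was higher by 0.93, and the accessory subunit Ndufb8 by 0.80. The opposite end was held by Atp5sl, an assembly factor of complex I, at -0.64, Ndufc2 at -0.50 and Ndufv1, the flavoprotein that takes electrons from NADH, at -0.40.

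In the day 5 away library the members as a whole lay close to day 4 morning, and a few genes differed strongly. The median difference was -0.16, beside -0.01 over all genes. Under scaling by library totals it turned to 0.14, beside 0.28 over all genes, so the sign of the median depends on the scaling. The members lay below all genes under both, which is no separate check, since a change of scaling shifts all genes alike. Past 2-fold, 6 of 83 members were lower, where 14.5% of all genes were, and 2 were higher, where 14.6% of all genes were. The lower ones were Ndufc2, Cox7a2l, Atp5f1, Ndufa6, Ndufv3 and Uqcrh, and the higher ones were Atp5g1 and Ndufaf2. With library totals the differences of Ndufa6, Ndufv3, Atp5f1 and Uqcrh came to -0.81, -0.80, -0.90 and -0.79, short of 2-fold.

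Around the embryo most members were lower than on day 4 morning. The median difference was -0.37, beside -0.02 over all genes, and 65 of 83 members were below 0. Past 2-fold, 11 members were lower, where 22.4% of all genes were, and 4 were higher, where 20.9% of all genes were. The share of members past 2-fold thus stayed under that of all genes in both directions, as in each of the other comparisons. The SD of the differences was 0.90 over members against 2.03 over all genes, which were not matched to the members in level. Ndufc2, Cox7a2l, Ndufa6, Ndufa2, Uqcrh, Ndufb10, Atp5f1, Ndufv2, Ndufa7, Atp5s and Atp5l were lower, and Ndufa4l2, Atp5g1, Ndufaf2 and Ndufaf6 were higher. Atp5l and Ndufaf6 sat on the 2-fold line, at -1.0 and 1.0.

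Between the libraries of day 5, the members around the embryo were lower than those away from it. The median difference, around minus away, was -0.27, beside -0.02 over all genes, and 62 of 83 members were below 0. Past 2-fold, 2 members were lower around the embryo, where 14.5% of all genes were, and 1 was higher, where 13.7% of all genes were. The lower ones were the accessory subunits of complex I Ndufa12 and Ndufb8, both at -1.17, and the higher one was Ndufa4l2. These counts moved with the processing. Library totals gave a median of -0.61, beside -0.36 over all genes, with 13 members lower past 2-fold, and 0 members were past 2-fold when those that share exons or near-identical sequence with another gene were left out.

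Counted in either direction, 2 of 83 members were past 2-fold in day 4 against day 3 morning, 1 in day 4 evening, 8 in day 5 away and 15 in day 5 around, each against day 4 morning, and 3 between the day 5 libraries. All genes gave 19.0%, 14.1%, 29.1%, 43.3% and 28.2%. At a limit of 1.5-fold the members past it were 11, 7, 16, 32 and 17, and all genes gave 37.7%, 30.2%, 48.5%, 62.2% and 46.4%. The edgeR exact test at a fixed dispersion of 0.1 with a false discovery rate of 0.05 and the same 2-fold limit, where a call sets 1 library against another and says nothing of conditions, called 0, 0, 2, 5 and 1 members and 3.68%, 1.83%, 11.6%, 24.4% and 10.7% of all genes. Under each of these rules the share of members was below that of all genes. All genes reach down to a mean of 1 CPM and were not matched to the members in level. Closer to them were 431 other genes with models of at most 1000 bases and a mean of 20 to 400 CPM. Of these, 9.281%, 6.497%, 19.49%, 30.86% and 15.08% were past 2-fold in the same order, each below the share of all genes. The members, at 2.41%, 1.205%, 9.639%, 18.07% and 3.614%, lay lower still. The part of level in the gap to all genes was not tested.

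**Figure D2:**
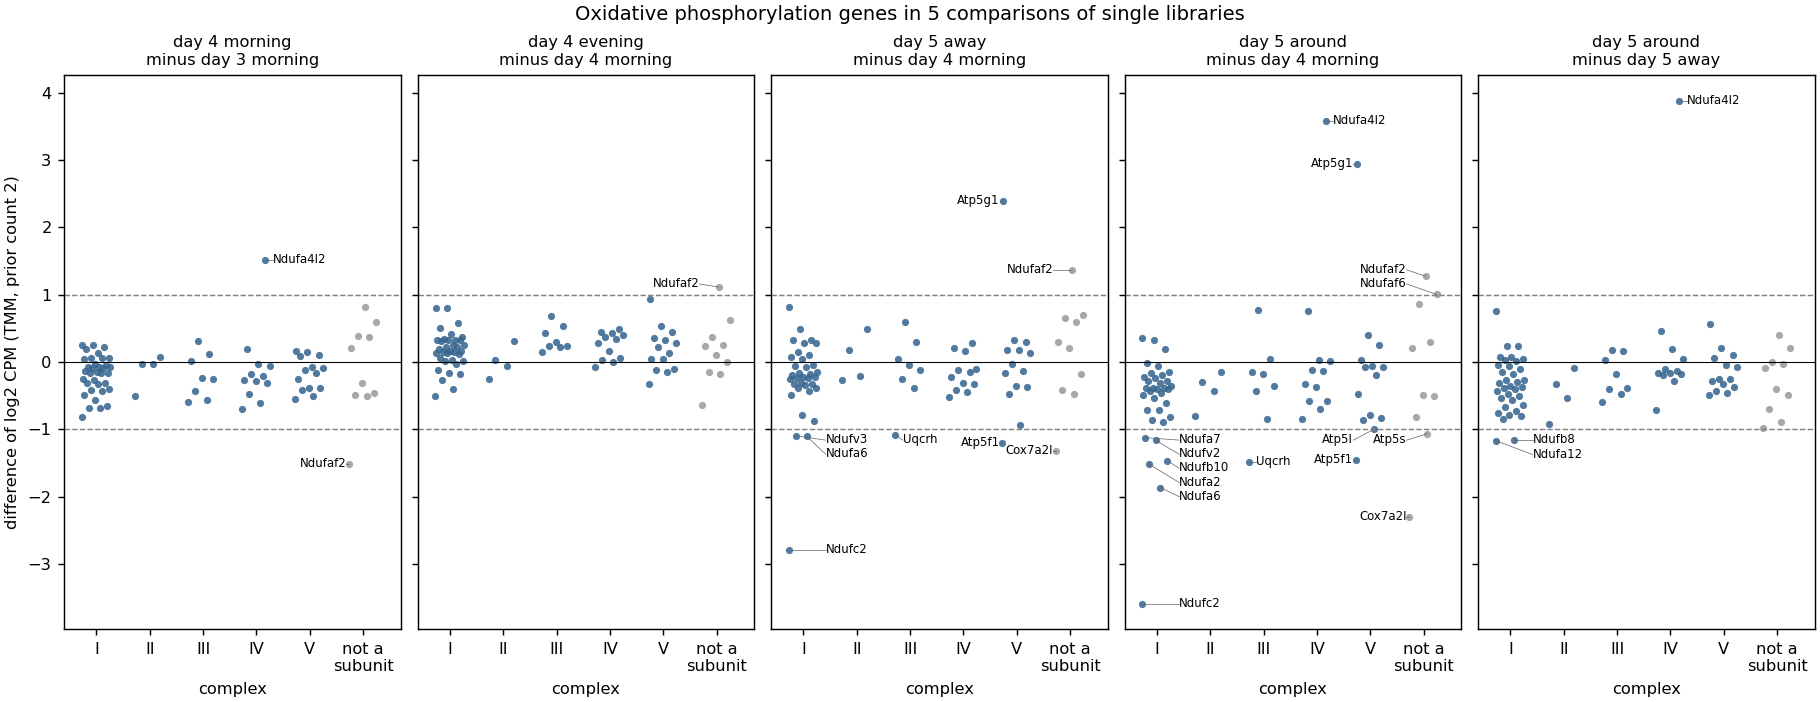
Each point is 1 of the 83 members that passed the filter, placed by complex, with the difference of log2 CPM between 2 single libraries on the vertical axis, and dashed lines mark 2-fold. Grey points are the 8 assembly factors of complex I with Cox7a2l and Atp5s. Most points lie within the dashed lines, and named outliers reach -3.60 (Ndufc2) and 3.58 (Ndufa4l2) in day 5 around minus day 4 morning.

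The member furthest below day 4 morning on day 5 was in complex I. Ndufc2 encodes an accessory subunit of the membrane arm and lies at 7:97400003-97407800 in GRCm38. It stood at 840, 877 and 621 CPM in the day 3 morning, day 4 morning and day 4 evening libraries, at 127 CPM in day 5 away and at 72.4 CPM in day 5 around. It was thus high before attachment and low in both day 5 libraries. Against day 4 morning it was 6.92-fold lower away from the embryo (log2 difference -2.79, interval -2.85 to -2.73) and 12.1-fold lower around it (-3.60, interval -3.68 to -3.52). No other gene shares its exons in the annotation, and no near-identical copy was found. The other subunit with this prefix, Ndufc1, differed by -0.23 and -0.38 in the same comparisons.

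Ndufa6, an accessory subunit that sits on the matrix arm, followed the same order from day 4 evening on. Its levels were 225, 268, 320, 125 and 73.5 CPM from day 3 morning to day 5 around. Both day 5 values were the lowest, with differences from day 4 morning of -1.10 away (interval -1.18 to -1.03) and -1.87 around (interval -1.96 to -1.78). Ndufa2, also of the matrix arm, ran at 144, 129, 161, 69.9 and 45.0 CPM and was lower by 2-fold only around the embryo, at -1.52. The same held for Ndufb10 of the membrane arm at -1.46 and for Ndufa7 at -1.12. Ndufv3, an accessory subunit of the NADH-binding module, was the only one of the 6 genes lower away from the embryo that was not lower still around it, with -1.10 away and -0.86 around.

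The core subunits hold the flavin and iron-sulfur centres. Of 7 nuclear core subunits, 1 was past 2-fold in any comparison, namely Ndufv2 in day 5 around, at -1.17 (interval -1.33 to -1.01). It had 1365, 1113, 1244, 935 and 471 counts. All 7 were lower around the embryo than on day 4 morning, and the other 6 lay between -0.49 and -0.28. The accessory subunits had the same median of -0.39 in that comparison, with 5 of 28 past 2-fold, all lower, beside 22.4% of all genes.

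Ndufa12 and Ndufb8 were past 2-fold between the places of day 5, and short of 2-fold from day 4 morning. Ndufa12 is the accessory subunit that takes the site held by Ndufaf2 during assembly. It stood at 98.2, 69.8, 87.3, 123 and 54.6 CPM, so its highest and its lowest level were those of day 5 away and day 5 around, at 0.81 and -0.35 from day 4 morning. A pseudogene copy covers 71.0% of the Ndufa12 transcript at near identity, and reads from both may have been mixed. Ndufb8, of the membrane arm, stood at 95, 84.6, 148, 103 and 45.7 CPM, highest on day 4 evening and lowest around the embryo, at -0.89 from day 4 morning. Ndufb11 was the opposite, at 139 CPM away and 237 CPM around, a difference of 0.76.

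The 8 assembly factors of complex I among the members differed in both directions. They had medians of 0.45 in day 5 away and 0.25 in day 5 around against day 4 morning, with 3 of the 8 below 0 around the embryo, where the 35 subunits had -0.22 and -0.39. Ndufaf2 had 257, 90, 174, 247 and 210 counts in the order of the libraries. Day 4 morning was therefore its single low library. The difference was -1.51 from day 3 to day 4 morning (interval -1.89 to -1.18), then 1.11, 1.36 and 1.27 in day 4 evening, day 5 away and day 5 around against that same library. Ndufaf4 followed more weakly, with 0.62, 0.65 and 0.86, and Ndufaf6 reached 1.0 around the embryo on 54 and 105 counts, with an interval of 0.54 to 1.53. Ndufaf3, which acts with Ndufaf4, differed the other way, with -0.42 away and -0.81 around.

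Complex II, the succinate dehydrogenase shared with the citric acid cycle, stayed within 2-fold in all 4 subunits in every comparison. Sdhd, a membrane anchor, was the most variable, at 334, 351, 438, 493 and 260 CPM, and differed by -0.92 between the places of day 5. The catalytic flavoprotein Sdha was lowest around the embryo, at 94.1 CPM against 164 CPM on day 4 morning.

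In complex III only Uqcrh was past 2-fold. It encodes the hinge protein that lies beside cytochrome c1. Its levels were 285, 354, 435, 167 and 126 CPM, and both day 5 libraries lay below the other 3. The differences from day 4 morning were -1.08 (interval -1.15 to -1.02) and -1.49 (interval -1.56 to -1.42). The core protein Uqcrc1 differed the other way, by 0.60 and 0.77, and the Rieske protein Uqcrfs1 stayed between 332 and 429 CPM in all libraries. Uqcrb, among the members with the highest RPKM, was at 252 CPM on day 4 morning and at 193 and 197 CPM on day 5, and 3 pseudogenes match 62.8% of its transcript.

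In complex IV the ordinary subunits stayed within 2-fold in every comparison, and a variant did not. Its 12 subunits had a median of -0.19 in day 5 away and -0.22 in day 5 around. Cox4i1, the general form of subunit 4, was at 331, 380, 381, 266 and 233 CPM. Cox8a lay between 301 and 389 CPM and Cox6b1 differed by at most 0.17 in either direction. Cox5a was the highest of the ordinary subunits around the embryo relative to day 4 morning, at 0.75.

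Ndufa4l2, a variant of Ndufa4 that is known to be induced in hypoxia, had 7, 24, 24 and 20 counts in the first 4 libraries and 294 around the embryo. It was 11.9-fold higher there than on day 4 morning (log2 difference 3.58, interval 3.08 to 4.35) and 14.8-fold higher than away from the embryo. Its level remained low beside Ndufa4 itself, at 17.9 RPKM against 446 RPKM in that library. Ndufa4 was at 384, 237, 333, 213 and 219 CPM. The library in which Ndufa4l2 was high is the one with embryo transcripts and with the high Des level, and 34 bases of its exons lie opposite to those of Shmt2. Its mean level over the libraries was below 10 CPM.

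Cox7a2l encodes SCAF1, known as a factor that joins complexes III and IV into supercomplexes. Only its transcript was read here, and neither its protein nor supercomplexes were measured. A pseudogene matches 17.8% of the Cox7a2l transcript at near identity. The levels of Cox7a2l were 569, 1004, 1006, 400 and 203 CPM from the first library to the last. The pair of day 4 libraries was thus the high point, with day 3 between them and day 5. The difference was 0.82 from day 3 to day 4 morning (interval 0.79 to 0.86), -1.33 in day 5 away (interval -1.37 to -1.29) and -2.30 in day 5 around (interval -2.36 to -2.25). Its namesake Cox7a2, the subunit of complex IV it resembles, differed by -0.41 and -0.58 on day 5.

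**Figure D3:**
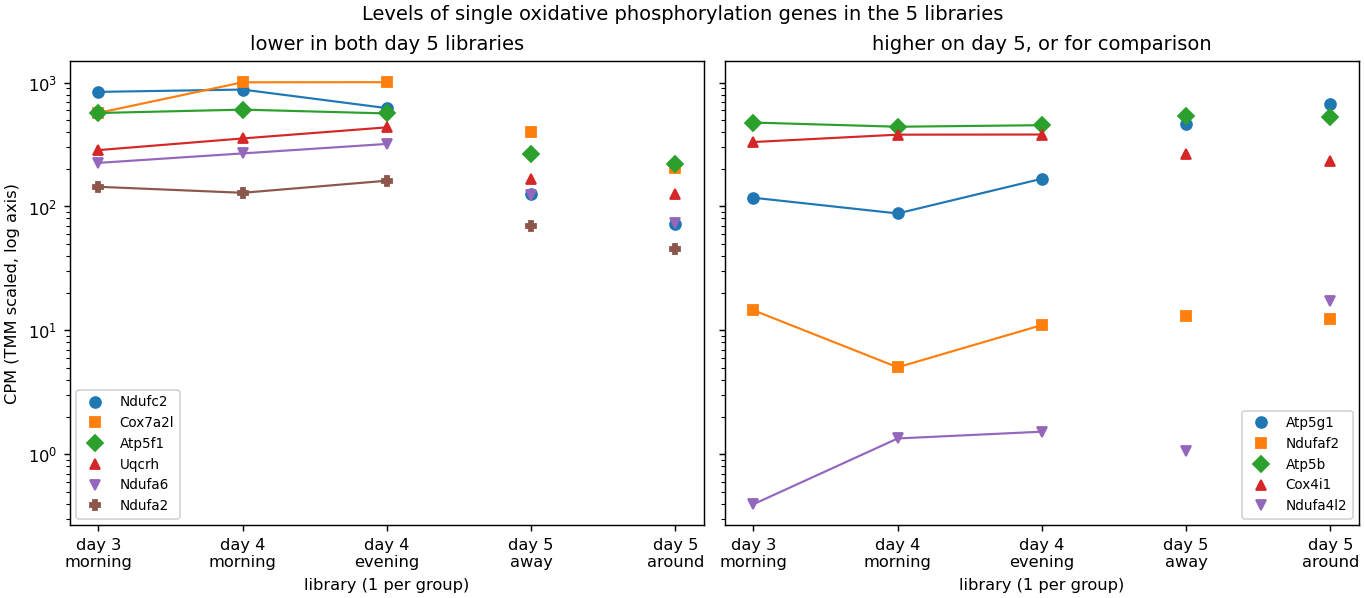
Level in CPM (log axis) of single genes in the 5 libraries, 1 point per gene and library, with a line through the 3 libraries before attachment. On the left, Ndufc2 is at 877 CPM on day 4 morning and 72.4 in day 5 around, where it lies on the point of Ndufa6. On the right, Atp5g1 and Ndufa4l2 are highest in day 5 around, Ndufaf2 is lowest on day 4 morning, and Atp5b and Cox4i1 are drawn for comparison.

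In complex V the genes past 2-fold in any comparison were Atp5g1, Atp5f1, Atp5l and Atp5s, none of them of the catalytic head. The 5 genes of the F1 head, Atp5a1, Atp5b, Atp5c1, Atp5d and Atp5e, were within 2-fold in every comparison, the lowest being Atp5e at -0.84 around the embryo against day 4 morning. Atp5b, the catalytic beta subunit, was at 475, 440, 453, 541 and 524 CPM. Atp5f1, subunit b of the peripheral stalk, was at 568, 604, 563, 264 and 220 CPM and so was about level before attachment and lower in both day 5 libraries, at -1.20 (interval -1.25 to -1.15) and -1.45 (interval -1.51 to -1.40). Other genes match 64.6% of the Atp5f1 transcript at near identity and 205 bases of its exons lie opposite to Wdr77, so part of its count is uncertain. The other stalk genes Atp5h, Atp5j and Atp5o differed by -0.13, 0.32 and 0.13 away from the embryo and by -0.07, 0.03 and -0.20 around it. Near-identical copies cover 77.6% of the Atp5h and 80.3% of the Atp5o transcript, so part of their counts is uncertain too. Atp5l, subunit g, had 1748 counts on day 4 morning, 961 in day 5 away and 830 in day 5 around, with a difference of -0.93 and -1.0. Near-identical copies cover 72.2% of the Atp5l transcript. Atp5s, the coupling factor B, was at 35.1 CPM on day 4 morning, 31.2 away and 16.7 around the embryo.

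The c ring is encoded by Atp5g1, Atp5g2 and Atp5g3, whose mature proteins are the same and whose targeting peptides differ. Atp5g1 was at 118, 87.8, 167, 460 and 677 CPM, the only subunit with a mean above 10 CPM that was past 2-fold upwards. Against day 4 morning it was 5.23-fold higher away from the embryo (log2 difference 2.39, interval 2.31 to 2.47) and 7.70-fold higher around it (2.94, interval 2.87 to 3.02). Atp5g3 stayed between 183 and 240 CPM, and Atp5g2 was at 75.7 CPM on day 4 morning and 43.9 in day 5 around. As a share of the RPKM of the 3 genes, Atp5g1 held 22.9%, 20.8%, 30.6%, 57.2% and 64.9% in the order of the libraries. The leading gene of the c ring was thus Atp5g3 before attachment and Atp5g1 on day 5. The summed level of the 3 genes was 591, 487, 630, 926 and 1201 RPKM, highest in the day 5 libraries. A pseudogene matches 59.5% of the Atp5g1 transcript at near identity, and reads from both may have been counted together. The same holds for Atp5g2, where 2 pseudogenes match 50.55% of the transcript.

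**Figure D4:**
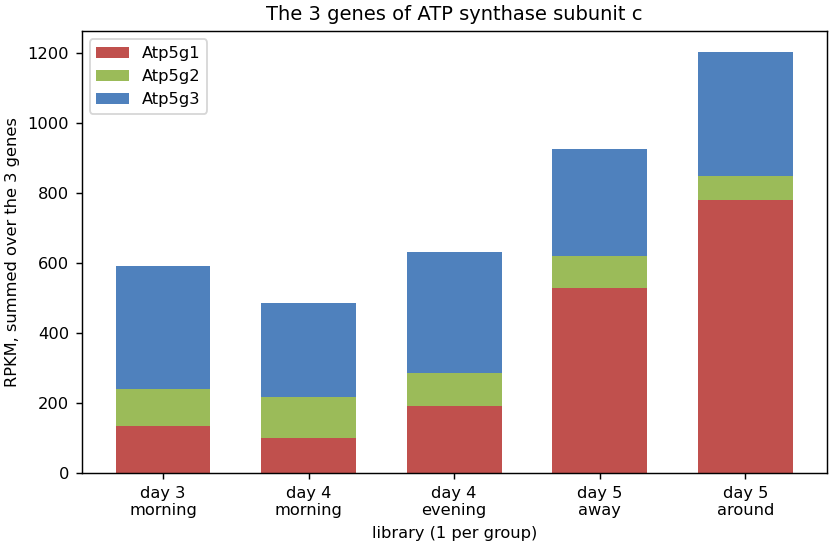
Bars give the level in RPKM of the 3 genes of subunit c stacked in each of the 5 libraries. The stack is lowest on day 4 morning at 487 RPKM and highest in day 5 around at 1201 RPKM, and the red part, Atp5g1, grows from 20.8% to 64.9% of it between these libraries.

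The sequences upstream of the genes past 2-fold in both day 5 libraries are shown, since these genes moved apart from the other members. They are the 150 bases before the RefSeq transcription start (GRCm38.p6), first of 5 genes that were lower and then of Atp5g1 and Ndufaf2, which were higher. Capitals mark matches to the inner NRF1, ETS or STAT letters named after the sequences.
Ndufc2, chr7:97399853-97400002, plus strand: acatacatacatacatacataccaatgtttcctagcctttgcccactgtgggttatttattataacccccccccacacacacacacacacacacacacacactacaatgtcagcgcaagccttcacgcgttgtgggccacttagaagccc
Cox7a2l, chr17:83514334-83514483, minus strand: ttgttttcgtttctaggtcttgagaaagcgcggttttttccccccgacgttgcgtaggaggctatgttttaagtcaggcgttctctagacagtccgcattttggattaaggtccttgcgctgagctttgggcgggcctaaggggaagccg
Ndufa6, chr15:82354292-82354441, minus strand: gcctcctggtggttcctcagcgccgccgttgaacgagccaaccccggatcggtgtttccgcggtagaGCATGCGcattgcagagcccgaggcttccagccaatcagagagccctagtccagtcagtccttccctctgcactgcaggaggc
Uqcrh, chr4:116075071-116075220, minus strand: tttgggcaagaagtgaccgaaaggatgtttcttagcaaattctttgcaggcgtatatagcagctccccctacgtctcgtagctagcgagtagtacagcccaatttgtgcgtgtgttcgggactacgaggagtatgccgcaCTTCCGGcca
Atp5f1, chr3:105959264-105959413, minus strand: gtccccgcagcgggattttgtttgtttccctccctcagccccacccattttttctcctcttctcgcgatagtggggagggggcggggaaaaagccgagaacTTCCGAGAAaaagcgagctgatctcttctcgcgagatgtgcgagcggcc
Atp5g1, chr11:96075632-96075781, minus strand: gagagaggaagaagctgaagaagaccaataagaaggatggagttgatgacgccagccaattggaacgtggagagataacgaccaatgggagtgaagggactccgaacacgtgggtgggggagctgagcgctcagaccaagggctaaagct
Ndufaf2, chr13:108158626-108158775, minus strand: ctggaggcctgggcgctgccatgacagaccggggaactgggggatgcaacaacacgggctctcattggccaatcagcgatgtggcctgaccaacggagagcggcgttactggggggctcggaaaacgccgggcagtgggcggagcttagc
The letters of 7 motifs were searched on both strands in the 250 bases before the start, for the 76 of 92 members with an entry (3 of them under an older symbol). The full NRF1 palindrome is bound by a known activator of respiratory genes. It was found in 5 of 76 members (6.58%) and in 0.877% of all 27025 genes. The inner part GCATGCG, which also lies within the palindrome, was found in 13.2% and 3.43%. The ETS letters CCGGAAG, to which Gabpa binds, were found in 17.1% and 7.83%, YY1 AAGATGGC in 2.63% and 1.83%, the estrogen-related receptor letters CAAGGTCA in 3.95% and 1.51%, STAT TTCCNNGAA in 6.58% and 4.74%, and the HIF letters ACGTG in 22.4% and 18.5%. Of the genes shown, Ndufa6 holds the inner NRF1 letters, Uqcrh the ETS letters and Atp5f1 the STAT letters. Atp5f1 and Atp5g1 also hold the HIF letters, which are not in capitals and in Atp5f1 lie before the bases shown. Ndufc2, Cox7a2l and Ndufaf2 hold none of the 7. A match is a description of letters and not of a bound site. The 27025 genes were not limited to those counted in the luminal layer and were not matched to the members.

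Other genes of the same machinery were read from lists. Of 41 assembly factors of the respiratory complexes that passed the filter, Ndufaf genes included, the median difference was -0.18 in day 5 away and -0.48 in day 5 around, with 3 and 6 genes lower and 1 and 2 higher past 2-fold. All genes gave 14.5% and 22.4% lower and 14.6% and 20.9% higher. Coa3, needed for the start of complex IV assembly, had 4458 counts on day 4 morning, 2202 in day 5 away and 1742 in day 5 around, a difference of -1.09 and -1.28. Taco1, which activates translation of a complex IV subunit, differed by -1.0 and -1.80, and Tmem126b and Acad9, both of the complex I assembly group, by -1.56 and -1.26 around the embryo. From day 3 to day 4 morning 30 of the 41 were below 0, with Surf1 higher past 2-fold, at 1.02, and Ndufaf2 and Cmc2 lower. All genes gave 7.97% higher and 11.0% lower in that comparison.

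Among 20 genes of electron carriers and of ubiquinone synthesis, the medians were 0.08 in day 5 away and -0.15 in day 5 around, with genes on both sides. Cycs, cytochrome c, had 1881, 809, 1533, 1992 and 2365 counts and so was lowest on day 4 morning. It differed by -1.23 from day 3 to day 4 morning, by 1.10 on day 4 evening, and by 1.23 and 1.62 on day 5. Coq10b, a ubiquinone-binding protein, had 564, 486, 1427, 851 and 2429 counts, and Sqrdl, which passes electrons from sulfide to ubiquinone, differed by 1.23 and 2.38 on day 5. Coq3, an enzyme of ubiquinone synthesis, was lower on day 5, at -1.56 and -1.76, and so was Etfb, of the electron transfer flavoprotein, at -1.48 around the embryo.

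Ribosomal genes and the vacuolar ATPase, also sets of small or multi-subunit complexes, were read for comparison. The 79 cytosolic ribosomal genes that passed had medians of 0.16, 0.12, 0.04, -0.21 and -0.24 in the order day 4 against day 3 morning, day 4 evening, day 5 away and day 5 around against day 4 morning, and around against away. The 76 mitochondrial ribosomal genes had -0.20, 0.18, -0.07, -0.17 and -0.13, and the 18 genes of the vacuolar ATPase had 0.37, 0.13, -0.05, 0.09 and 0.03. The oxidative phosphorylation genes, at -0.16, 0.22, -0.16, -0.37 and -0.27, lay below all of these in both day 5 comparisons with day 4 morning. Many members are short, and the 918 genes with models of at most 1000 bases had medians of -0.07, 0.12, -0.13, -0.26 and -0.16. The members' medians have the sign of this group of short genes in all 5 comparisons, and the part of length in them was not tested.

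**Figure D5:**
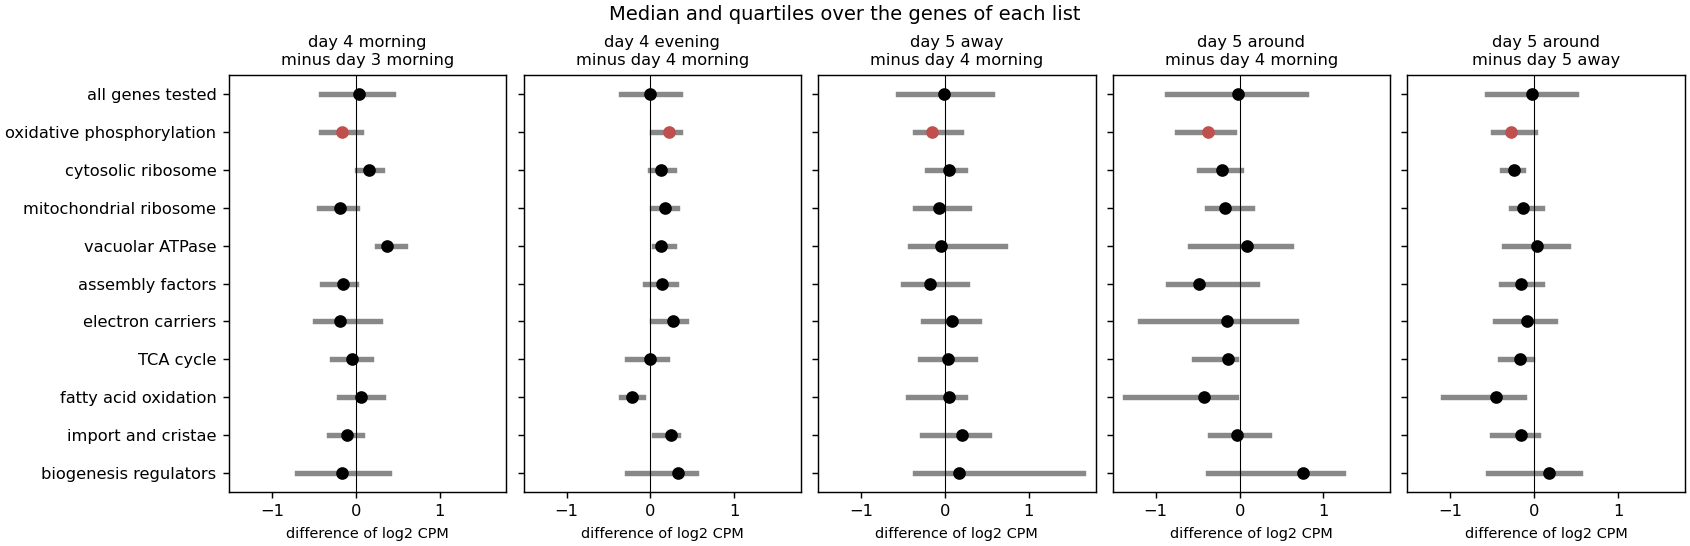
Dots are medians and grey bars the quartiles of the difference of log2 CPM over the genes of each list that passed the filter, in 5 comparisons of single libraries on a shared horizontal axis. The red dot, oxidative phosphorylation, is at 0.22 on day 4 evening and at -0.37 in day 5 around, both against day 4 morning.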

How the data were processed

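RNA was measured in 5 libraries of the uterine luminal layer. The authors deposited raw counts per gene in 1 table, together with gene coordinates and lengths. The submitters' processing notes name HISAT2, featureCounts and Subread 2.0.0, with GRCm38. The annotation, the strand setting and the treatment of reads that fit several places are not given in the sources used here. The members and gene lists were chosen with earlier results of these data known.

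Counts were scaled by TMM in edgeR 4.0.16 (R 4.3.3) over all 5 libraries. A gene was kept when its mean CPM was 1 or more, log2 values carry a prior count of 2, and RPKM used the deposited lengths and TMM-scaled library sizes. Past 2-fold means a log2 difference beyond 1. With 1 library per group no test of the groups was made. The interval of a ratio of counts is Clopper-Pearson at 95%, and the floor is 3 counts. The scaling and the fold calls were tested on simulated libraries of a common profile, with known changes in some genes of a single library. Wider differences between libraries, on which the scaling depends, were not simulated.

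Genes named are members past 2-fold in any comparison or at the 3 largest and 3 smallest differences of a comparison with a mean of at least 10 CPM, the tissue variants, the genes of subunit c and the 5 highest in RPKM, and up to 4 genes a list past 2-fold in each direction. Others given as a contrast to these were chosen after their values were seen. Near-identical copies are alignments of at least 100 bases at 97% identity or more to other GENCODE transcripts. In the table as deposited, names of 27 genes have the form of dates and were left as they are, and 2 names occur more than once. Alternatives were DESeq2 1.42.0 size factors, library totals, other filters and prior counts, subunits only, a 1.5-fold call and the edgeR exact test at a fixed dispersion of 0.1. Python 3.11.15, pandas 2.3.3, numpy 2.4.6, scipy 1.17.1 and matplotlib 3.10.9 were used.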

Additional observations from a re-analysis of the deposited data

How the results depend on the processing

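With 1 library per group no replicate could be left out, and depth limits single genes only through counting error. No paired analysis was possible because each group holds 1 library. DESeq2 size factors, a prior count of 0.5 and TMM factors without the day 5 around library left the sign of every median and kept every count of members past 2-fold within 1.5 times, where run. Library totals moved the median to -0.49 in day 4 against day 3 morning, reversed it to 0.14 in day 5 away against day 4 morning and moved it to -0.61 between the day 5 libraries, with 6, 5 and 14 members past 2-fold. The members' median minus that of all genes was -0.21, -0.14 and -0.25 in these 3. A change of scaling shifts all genes of a comparison alike, apart from the prior count. This gap could therefore hardly move and is no check of the result. Totals without Rn45s and Lars2, chosen after seeing the data, gave medians of -0.35, -0.0051 and -0.58 in the same comparisons and -0.53 in day 5 around against day 4 morning, with 5 members past 2-fold in day 5 away and 13 between the day 5 libraries. Leaving out members with shared exons or near-identical copies, also chosen after seeing the data, left 53 genes, of which 1, 5 and 9 were past 2-fold in day 4 morning, day 5 away and day 5 around, and 0 between the day 5 libraries, since Ndufa12, Ndufb8 and Ndufa4l2 each share exons or near-identical sequence with another gene. For day 4 against day 3 morning a mean of at least 5 CPM and subunits only each left 1. For day 4 evening no filter gave 2 and subunits only 0, and between the day 5 libraries no filter gave 6. A 1.5-fold call gave 11, 7, 16, 32 and 17 members in the order of the report. The edgeR exact test at a fixed dispersion of 0.1, which compares libraries and not conditions, called 0, 0, 2, 5 and 1.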

Other observations

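Regulators of mitochondrial mass differed between the libraries in both directions. Of 25 such genes that passed the filter, 9 were higher and 4 lower past 2-fold in day 5 away, and 10 higher and 5 lower in day 5 around, both against day 4 morning, with medians of 0.16 and 0.75. All genes gave 14.6% higher and 14.5% lower in day 5 away and 20.9% and 22.4% in day 5 around, and the counts of this and the following lists are to be read beside these shares. Myc had 869, 268, 561, 2209 and 1095 counts from day 3 morning to day 5 around. Esrra, the estrogen-related receptor alpha, had 369, 946, 607, 216 and 224 counts and was highest on day 4 morning. Ppargc1a, a coactivator of mitochondrial genes, had 491 counts in day 5 away and 41 in day 5 around. Prkaa1, a catalytic subunit of AMP-activated kinase, was higher by 1.78 and 1.95 on day 5. Hif1a had 33022 counts on day 4 morning and 12191 on day 4 evening, a difference of -1.26.

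Of 13 genes of mitophagy and turnover, 3 were higher and 2 lower past 2-fold in day 5 away, and 2 higher and 2 lower in day 5 around, both against day 4 morning. Bnip3, a receptor for mitophagy that is known to be induced in hypoxia, had 862, 1187, 1106, 4455 and 23973 counts, with differences from day 4 morning of 1.83 (away) and 4.41 (around). Bnip3l was higher by 1.12 around the embryo, and Pink1 had 939, 2879, 4071, 7550 and 4273 counts. Fundc1, another receptor, was lower on day 5, at -1.36 and -1.52. Of 6 ATP synthase and respiratory regulators that passed, 1 was lower in day 5 away, and 1 was higher and 1 lower in day 5 around. The higher one, Higd1a, had 618 counts on day 4 morning, 697 away and 1980 around the embryo. These high values stand in the library that also holds embryo transcripts, and the part of the embryo in them was not tested.

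The pathways that feed the chain differed in single genes. In the 19 genes of the citric acid cycle and its entry the medians were 0.03 in day 5 away and -0.14 in day 5 around, with 1 and 2 genes higher and 2 and 2 lower past 2-fold. Pcx, pyruvate carboxylase, had 2289, 6375, 3960, 859 and 220 counts, a difference of -2.96 and -4.77 on day 5. Idh2 had 1331 counts in day 5 away and 212 in day 5 around, and Mdh2 was higher by 1.14 around the embryo. In the 16 genes of fatty acid oxidation 0 were past 2-fold in day 5 away and 5 were lower in day 5 around, among them Hadh, Acaa2, Eci1 and Decr1, at -1.54, -1.44, -1.60 and -1.50. Of 9 carriers of ADP, ATP and phosphate 1 was past 2-fold on day 5, the mitochondrial creatine kinase Ckmt1, with 406 counts on day 4 morning, 32 away and 82 around the embryo. The 28 genes of protein import and cristae had medians of 0.20 and -0.03 on day 5.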
